A study of Mus musculus with 12 samples.

Results

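Lysosomal enzymes and membrane proteins were followed as a list of 36 genes in liver RNA sequencing, out of 50499 genes in the count table. The list was drawn up by function, with earlier results of these data known, and every listed symbol was found in the table. It holds the cathepsins and other lysosomal proteases, the glycosidases, the lipid-handling enzymes and cholesterol exporters, lysosomal membrane proteins, subunits of the proton pump, the transcription factor gene Tfeb and the progranulin gene Grn. Of the 36 genes, 35 passed the filter on low counts. The exception was Ctsk, the collagen-degrading cathepsin best known from osteoclasts, with 50 reads in all 12 libraries together.

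The lysosome is the acidic compartment in which cells break down proteins, glycans, lipids and nucleic acids taken up from outside or delivered by autophagy. A proton pump, the V-ATPase, acidifies it, hydrolases work at that low pH, and cholesterol freed from lipoproteins leaves through NPC2 and NPC1. TFEB and its relatives switch on many of these genes through a promoter element built around the letters CACGTG. In liver, hepatocytes use lysosomes to clear lipoproteins and lipid droplets, and resident and recruited macrophages hold large lysosomal stores of cathepsins.

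The 12 libraries come from livers of male C57Bl/6NCrl mice that started on Western diet with sugar water, or on chow with normal water, at the age of 6 weeks. After 12 weeks of diet they received AAV8 particles by tail vein, and livers were taken 12 weeks after that. The groups, with 3 libraries each, are Western diet with the siAATF vector (Western siAATF), Western diet with the null vector (Western null), chow with the siAATF vector (chow siAATF) and chow with the null vector (chow null). Both vectors carry the TBG promoter, which is directed to hepatocytes, whereas the RNA is of whole liver tissue. The labels do not state that each library is a separate mouse, so a p-value covers the variation among these libraries, which may be technical. Libraries held 1646853 to 13469819 counts, of which the 18S ribosomal RNA gene took 0.871% to 50.8%. Aatf, the target of the vector, stood at 27, 27.5 and 28.2 CPM in Western siAATF, 27.6, 21.1 and 30 in Western null, 39.2, 24.6 and 40.5 in chow siAATF, and 36.8, 26.5 and 31.6 in chow null, where CPM is the count scaled by the TMM library size. Levels under the siAATF label overlapped with those under the null label on both diets (log2 fold change 0.06 ± 0.25 on Western diet, edgeR adjusted p = 0.953), so directions given for the vector rest on the label. Alb, the albumin gene that marks hepatocytes, stood between 21927 and 34096 CPM in the Western libraries and between 40589.7 and 59777 CPM in the chow libraries. Its difference between Western null and chow null did not pass (log2 -0.65 ± 0.26, edgeR adjusted p = 0.101).

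The promoters of the list are shown first, because the CACGTG element is the best known link between these genes. RefSeq promoter windows on the mouse build GRCm38.p6 were found for 31 of the 36 genes, and the 250 bases before each annotated start were searched on both strands. CACGTG, which reads the same on both strands, occurred before 11 of the 31 genes (35.5%), against 6.86% of 27025 genes with a window and 9.92% of those tested here. The 7-letter form TCACGTG, which contains CACGTG, was found before 9 of the 31 (29.0%), against 3.58% of all genes. Stretches around CACGTG are printed for 4 genes that rose on Western diet (Lamp1, Ctsd, Lgmn and Ctsa) and 3 that did not pass (Mcoln1, Gla and Atp6v1a). Capitals mark each CACGTG, and each stretch runs 5′ to 3′ on the gene's own strand and ends before the annotated start.
Lamp1 (chr8:13159070-13159160, plus strand): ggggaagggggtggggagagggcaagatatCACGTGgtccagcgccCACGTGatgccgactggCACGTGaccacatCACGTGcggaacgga
Ctsd (chr7:142387890-142387955, minus strand): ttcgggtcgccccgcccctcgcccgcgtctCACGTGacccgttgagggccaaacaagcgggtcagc
Lgmn (chr12:102439106-102439171, minus strand): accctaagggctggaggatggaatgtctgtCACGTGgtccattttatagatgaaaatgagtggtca
Ctsa (chr2:164833731-164833772, plus strand): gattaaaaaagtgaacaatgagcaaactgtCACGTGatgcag
Mcoln1 (chr8:3500418-3500509, plus strand): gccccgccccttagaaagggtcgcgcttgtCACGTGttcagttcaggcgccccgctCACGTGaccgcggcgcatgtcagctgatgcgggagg
Gla (chrX:134601164-134601255, minus strand): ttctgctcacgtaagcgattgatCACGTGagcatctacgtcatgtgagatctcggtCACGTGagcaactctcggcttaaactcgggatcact
Atp6v1a (chr16:44139355-44139420, minus strand): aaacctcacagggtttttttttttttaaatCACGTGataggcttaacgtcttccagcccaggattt
Lamp1 held 4 copies of the element within 91 bases of its start, the most of any gene on the list. Ctsd held 2 copies, and only the stretch around the one nearer its start is printed. CACGTG was found before 4 of 13 genes that rose on Western diet and 7 of the other 18, counting a gene once if any of its windows held it. Psap, Hexa, Gusb and Pld3 rose and hold none in these windows. A match describes the letters in the window and is not evidence of a bound factor.

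The first comparison asks what Western diet did to these genes in mice given the null vector. Of the 35 tested genes, 15 rose and 0 fell in Western null relative to chow null (edgeR, adjusted p under 0.05). The share that rose was 42.9%, against 6.44% of all 11934 genes tested, and 6.77% of all genes fell. As the list was chosen with earlier results known, this contrast is a description and not a test. The median log2 fold change was 0.44 over the listed genes and -0.03 over all genes. In 20 of the 35 the 3 Western null libraries all lay above the 3 chow null libraries (17.7% of all genes did so), and in 1, Scarb2, they all lay below (17.0% of all genes). The genes that rose were Ctsa, Ctsb, Ctsd, Ctss, Lgmn, Gusb, Hexa, Man2b1, Neu1, Psap, Pld3, Lamp1, Laptm5, Cd68 and Atp6v1b2, with log2 fold changes between 0.66 and 2.15. The other 20 lay between -0.39 and 0.60.

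**Figure D1:**
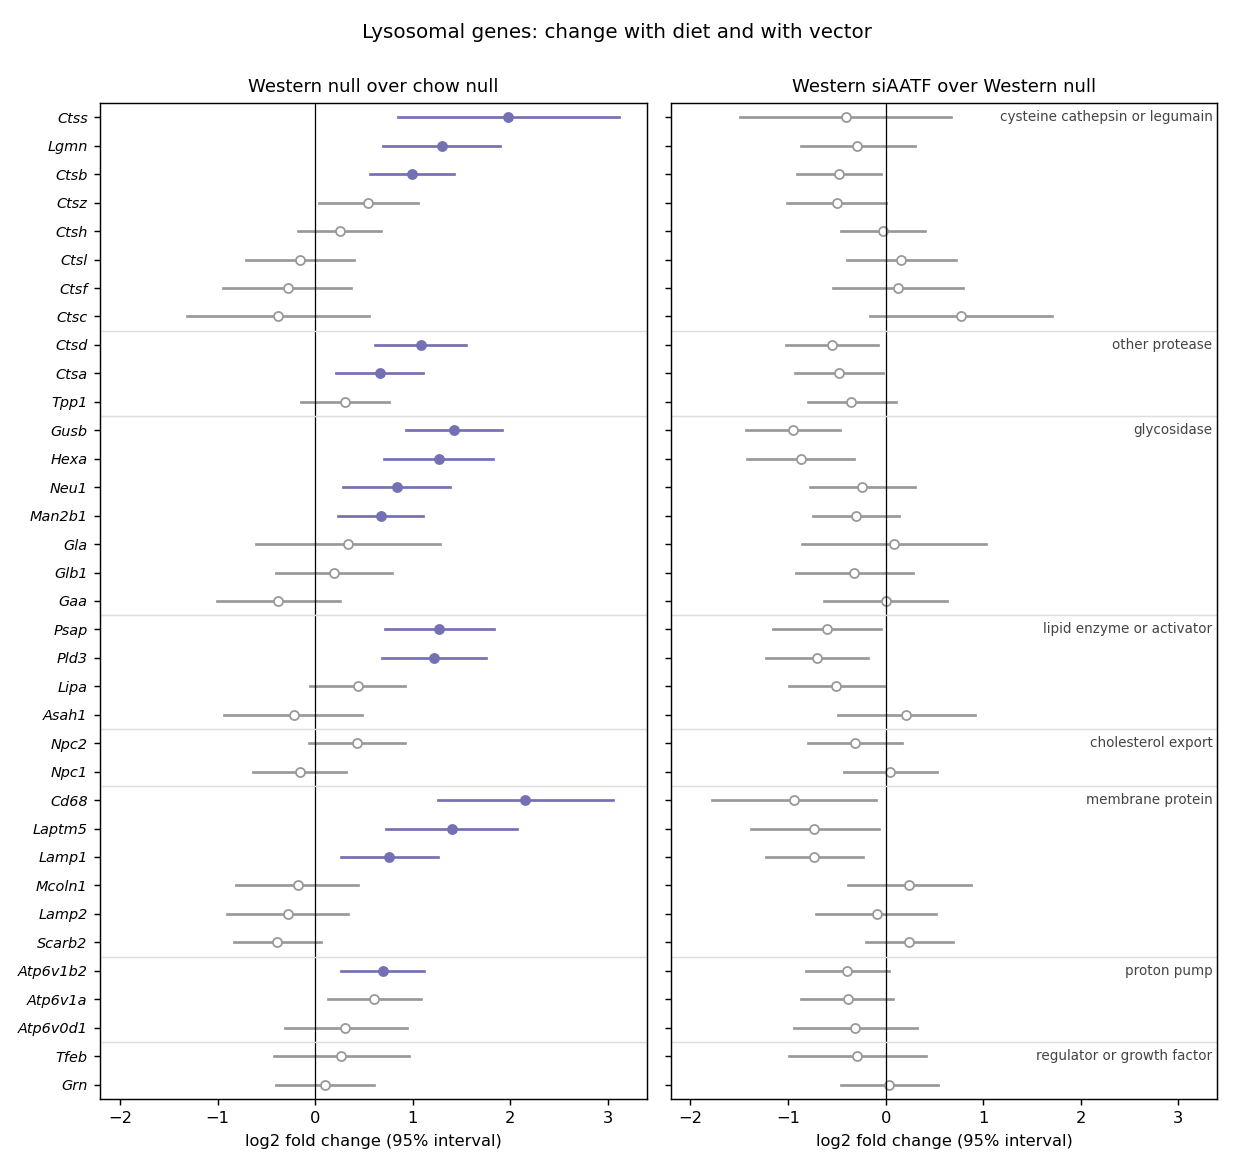
Log2 fold change of the 35 tested genes in Western null over chow null (left) and Western siAATF over Western null (right), grouped by role, with 95% intervals. Filled points passed edgeR's test at an adjusted p under 0.05: 15 genes on the left, all above 0, and none on the right, where all 15 lie below 0. Both panels use the Western null libraries and are not independent.

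Glycosidases strip sugars from glycoproteins, glycolipids and glycosaminoglycans, and 4 of the 7 on the list rose. Gusb, the β-glucuronidase of glycosaminoglycan breakdown, stood at 23.4, 25 and 19.8 CPM in Western siAATF, 42.5, 46 and 44.1 in Western null, 15.1, 21.9 and 20.3 in chow siAATF, and 17.1, 18.6 and 14.5 in chow null. Its 3 Western null libraries were the highest of the 12, though 20.6% of its span overlaps another gene, where the assignment of reads is uncertain. The rise with diet was 2.67-fold (log2 1.42 ± 0.23, edgeR adjusted p = 0.00108), the lowest adjusted p on the list. Hexa encodes the alpha subunit of β-hexosaminidase, which degrades gangliosides, and stood at 38.3, 41.5 and 27.3 CPM in Western siAATF, 85.4, 59.3 and 53.3 in Western null, 25.7, 23.9 and 26.3 in chow siAATF, and 27, 35.6 and 20.7 in chow null. Again every Western null library exceeded every other library (log2 1.27 ± 0.26 over chow null, edgeR adjusted p = 0.00511).

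Man2b1, the α-mannosidase of N-glycan breakdown, stood at 153, 111 and 130.3 CPM in Western siAATF, 164, 171 and 150.4 in Western null, 106, 115 and 126 in chow siAATF, and 93, 114 and 98.7 in chow null. Western null lay above both chow groups, while 1 Western siAATF library lay within its range (log2 0.67 ± 0.21 for diet under the null vector, edgeR adjusted p = 0.0432). Neu1, the sialidase that works in a complex with cathepsin A, stood at 65.7, 38.8 and 58.1 CPM in Western siAATF, 67.6, 67.1 and 57.1 in Western null, 35.2, 48.9 and 48.1 in chow siAATF, and 28.3, 46.3 and 34.1 in chow null. The Western null libraries exceeded both chow groups (log2 0.84 ± 0.26, edgeR adjusted p = 0.0411), and those of Western siAATF were spread from within the chow range to within the Western null range. Gla, the α-galactosidase whose loss causes Fabry disease, had a log2 fold change of 0.34 ± 0.45 on 3 to 59 reads a library. Glb1, the β-galactosidase used to stain senescent cells, with 29% of its span overlapped by other genes, stood at 0.19 ± 0.28 and Gaa, the acid α-glucosidase of glycogen, at -0.38 ± 0.30. None of these 3 passed.

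In the group of lipid enzymes and activators, Psap and Pld3 rose, and the lipid-degrading enzymes Lipa and Asah1 did not pass. Pld3 was placed there by its family, though it encodes an exonuclease. Psap encodes prosaposin, the precursor of the saposins that present sphingolipids to their hydrolases, and stood at 640.4, 421 and 798 CPM in Western siAATF, 902, 986 and 925 in Western null, 474, 481 and 499 in chow siAATF, and 334, 495 and 336 in chow null. The Western null libraries were the highest of the 12, and 1 Western siAATF library (replicate 2) lay within the chow range. The rise with diet was 2.42-fold (log2 1.27 ± 0.26, edgeR adjusted p = 0.005). Pld3, an endolysosomal exonuclease of the phospholipase D family, stood at 23, 16.1 and 28.6 CPM in Western siAATF, 34.6, 39.9 and 34.9 in Western null, 19, 22.5 and 23.4 in chow siAATF, and 14.6, 18.6 and 14.5 in chow null. Western null again lay above all other libraries, and all chow siAATF libraries lay above all chow null ones, though barely (log2 1.22 ± 0.25 for Western null over chow null, edgeR adjusted p = 0.005).

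Lipa, the acid lipase that frees cholesterol and fatty acids from lipoprotein esters, stood at 116, 169 and 145 CPM in Western siAATF, 213, 202 and 197 in Western null, 160.1, 163 and 116 in chow siAATF, and 181, 126 and 145 in chow null. Western null lay above the other 3 groups here too, by a smaller margin, and the rise over chow null did not pass (log2 0.44 ± 0.23, 95% interval -0.05 to 0.92, edgeR adjusted p = 0.225). Npc1, the membrane protein that exports cholesterol from the lysosome, stood at 40.5, 57 and 59 CPM in Western siAATF, 57.3, 40.5 and 52.9 in Western null, 53.2, 65.8 and 50.6 in chow siAATF, and 52.9, 61 and 54.8 in chow null. All 4 groups overlapped, with a log2 fold change for diet of -0.16 ± 0.23 (95% interval -0.64 to 0.32). Its soluble partner Npc2 had 0.43 ± 0.23 and the acid ceramidase gene Asah1 -0.22 ± 0.33, and neither passed. For Npc1 19.1% of the span, and for Asah1 14.8%, overlaps another gene, where the assignment of reads is uncertain.

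Of the 3 proteases outside the cysteine class, Ctsd and Ctsa rose. Ctsd, the main aspartic protease of the lysosome, stood at 331, 286 and 335 CPM in Western siAATF, 467, 486 and 440.2 in Western null, 219, 240.0 and 242 in chow siAATF, and 195, 281 and 186 in chow null. The Western null libraries were the highest of the 12 and Western siAATF came next, above every chow library (log2 1.08 ± 0.22 for diet under the null vector, edgeR adjusted p = 0.00509). Of the 8 tested cysteine cathepsins and legumain, Ctsb, Ctss and Lgmn rose. Ctsb, an abundant cysteine protease, stood at 481, 433 and 429 CPM in Western siAATF, 625, 635 and 614 in Western null, 351, 385 and 385 in chow siAATF, and 305, 316 and 322 in chow null. The order was the same, with no overlap between Western null, Western siAATF and the chow libraries (log2 0.99 ± 0.20, edgeR adjusted p = 0.00501). Ctsa, the carboxypeptidase that stabilises sialidase and β-galactosidase, stood at 111, 104 and 129 CPM in Western siAATF, 180.2, 151 and 149 in Western null, 94.7, 116 and 109.5 in chow siAATF, and 85.5, 119.7 and 99.2 in chow null. Its rise only just passed (log2 0.66 ± 0.21, edgeR adjusted p = 0.0499), and 27.4% of its span overlaps other genes. Tpp1, the tripeptidyl peptidase, did not pass (log2 0.31 ± 0.21).

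Ctss, the cathepsin that processes the invariant chain of MHC class II in antigen-presenting cells, stood at 92, 75.1 and 23.8 CPM in Western siAATF, 62.7, 107 and 85.6 in Western null, 24.1, 11.5 and 37.2 in chow siAATF, and 34.3, 15.2 and 14.1 in chow null. The Western null libraries lay above all chow libraries, and Western siAATF replicate 3 lay far below the other Western libraries, within the chow range. The rise was 3.94-fold with a wide error (log2 1.98 ± 0.52, edgeR adjusted p = 0.0258). Lgmn, legumain, an asparaginyl endopeptidase that matures other cathepsins, stood at 182, 133 and 85.8 CPM in Western siAATF, 143, 194 and 153 in Western null, 62.7, 46.8 and 77.1 in chow siAATF, and 68.1, 76.8 and 55.5 in chow null. Every Western library of either vector lay above every chow library (log2 1.30 ± 0.28 for diet under the null vector, edgeR adjusted p = 0.00697).

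Ctsl, another abundant cysteine protease, stood at 408, 463 and 308 CPM in Western siAATF, 358, 340.1 and 360.1 in Western null, 463, 269.8 and 375 in chow siAATF, and 325, 518 and 338 in chow null. Its 4 groups overlapped, and the diet difference did not pass (log2 -0.16 ± 0.26, 95% interval -0.71 to 0.40). Ctsz, a carboxypeptidase, had a log2 fold change of 0.54 ± 0.24, Ctsh, an aminopeptidase, 0.25 ± 0.20, Ctsf -0.28 ± 0.31, and Ctsc, the dipeptidyl peptidase that activates granule proteases of leukocytes, -0.38 ± 0.44. None of these passed. Ctsk had 3, 0 and 0 reads in Western siAATF, 5, 0 and 18 in Western null, 1, 6 and 3 in chow siAATF, and 2, 0 and 12 in chow null, too few to compare.

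**Figure D2:**
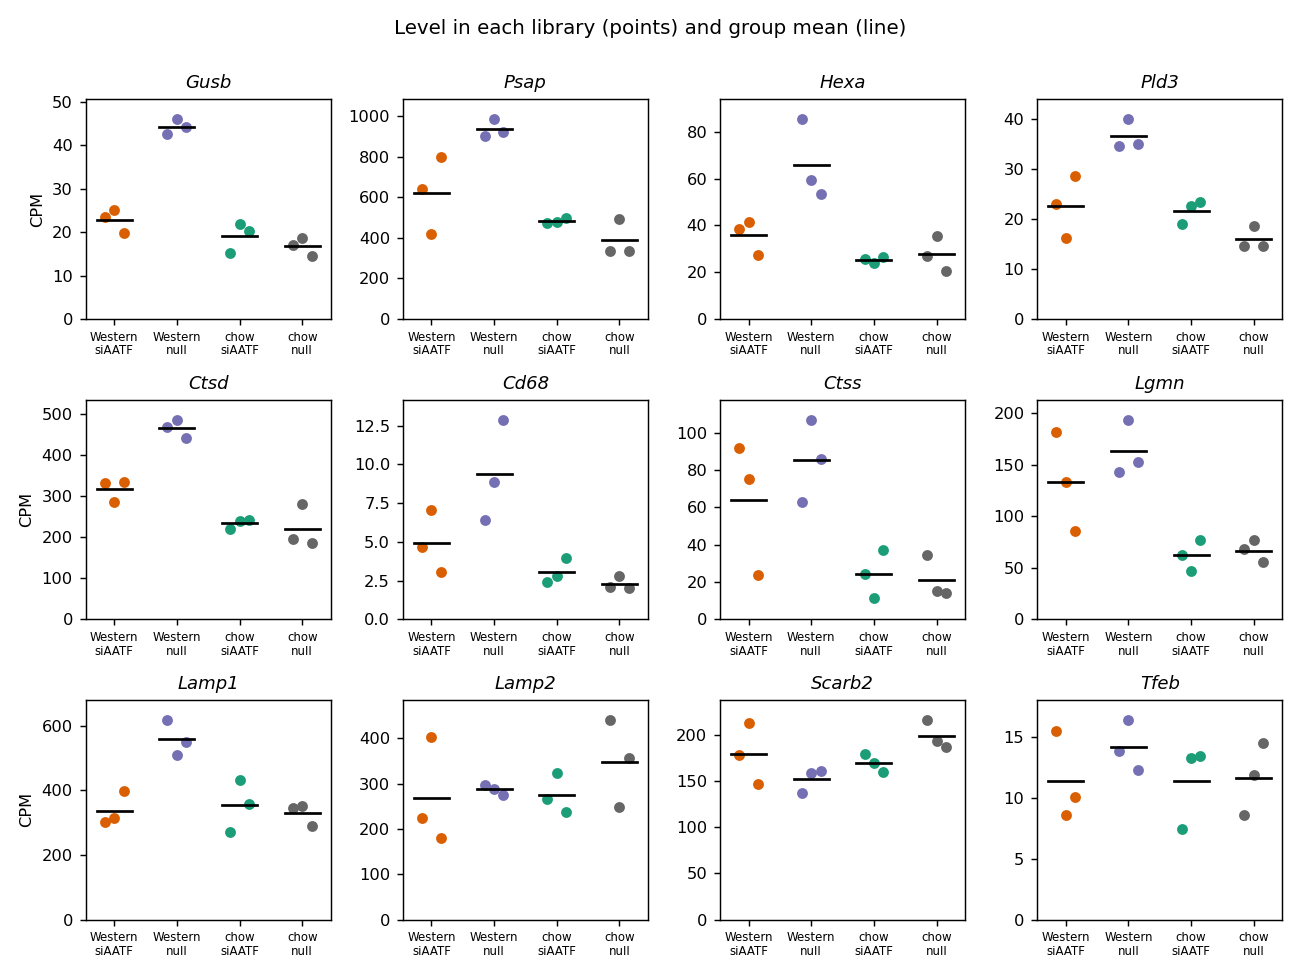
CPM of 12 lysosomal genes in each of the 12 libraries, with group means as lines and each axis starting at 0. Gusb, Psap, Hexa, Pld3, Ctsd and Lamp1 have all 3 Western null libraries above every other library, whereas the groups overlap for Lamp2 and Tfeb.

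Of the 6 membrane proteins, Cd68, Laptm5 and Lamp1 rose. Cd68, macrosialin, a heavily glycosylated protein of macrophage lysosomes, stood at 4.64, 7.04 and 3.08 CPM in Western siAATF, 6.42, 8.86 and 12.9 in Western null, 2.38, 2.77 and 3.97 in chow siAATF, and 2.06, 2.82 and 2 in chow null and showed the largest rise on the list (4.45-fold, log2 2.15 ± 0.42, edgeR adjusted p = 0.00386). Its levels rest on 5 to 144 reads a library. Laptm5, a lysosomal protein of blood-derived cells, stood at 19.7, 17.7 and 13.2 CPM in Western siAATF, 38.5, 27.9 and 19.8 in Western null, 9.26, 8.86 and 16.1 in chow siAATF, and 10.7, 12.4 and 9.49 in chow null (log2 1.40 ± 0.32, edgeR adjusted p = 0.00871). Both genes are markers of leukocytes, and in neither did the Western null libraries overlap with chow null.

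Lamp1, a main glycoprotein of the lysosomal membrane in all cell types, stood at 302, 314 and 398 CPM in Western siAATF, 619, 509 and 550.5 in Western null, 272, 433 and 357 in chow siAATF, and 347, 353 and 289.8 in chow null. The Western null libraries were the highest of the 12 (log2 0.76 ± 0.24, edgeR adjusted p = 0.0427). Its relative Lamp2, which also serves autophagy, did not pass (log2 -0.28 ± 0.29, 95% interval -0.90 to 0.34), and 23.9% of its span overlaps another gene. Scarb2, the sorting receptor of β-glucocerebrosidase, stood at 178, 213 and 147 CPM in Western siAATF, 137, 158 and 160.2 in Western null, 179, 169.8 and 160.1 in chow siAATF, and 216, 193 and 187 in chow null. Western null lay below chow null without overlap, but the difference did not pass (log2 -0.39 ± 0.21, edgeR adjusted p = 0.237). Mcoln1, a calcium channel of the lysosomal membrane, had -0.18 ± 0.30.

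Of the proton pump subunits, Atp6v1b2, a B subunit of the pump's ATP-splitting domain, stood at 32.1, 32.5 and 31.3 CPM in Western siAATF, 45.9, 39.9 and 40.6 in Western null, 23, 27.6 and 24.9 in chow siAATF, and 26.5, 24.3 and 26.6 in chow null and rose in Western null (log2 0.70 ± 0.20, edgeR adjusted p = 0.0322). Another gene overlaps 26.3% of its span. Atp6v1a, the catalytic A subunit, stood at 48, 70.1 and 45.3 CPM in Western siAATF, 67.1, 79.7 and 68.2 in Western null, 52.9, 51.4 and 43.9 in chow siAATF, and 53.6, 42.9 and 44.5 in chow null. Western null lay above chow null without overlap, and the difference did not pass (log2 0.60 ± 0.22, edgeR adjusted p = 0.0862). Atp6v0d1, of the membrane part of the pump, had 0.31 ± 0.30.

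Tfeb itself, the transcription factor gene, stood at 15.5, 8.62 and 10.1 CPM in Western siAATF, 13.8, 16.4 and 12.3 in Western null, 7.41, 13.3 and 13.4 in chow siAATF, and 8.57, 11.9 and 14.5 in chow null. The 4 groups overlapped and diet gave a log2 fold change of 0.27 ± 0.33 (95% interval -0.42 to 0.96, edgeR adjusted p = 0.626), which measures the gene's RNA and not the activity of its protein. Grn, which encodes the lysosomal growth factor progranulin, had 0.10 ± 0.24 (95% interval -0.40 to 0.60).

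The diet calls depended on the libraries used. Of the 15 genes, Cd68, Ctsd, Gusb, Hexa, Pld3 and Psap (6) stayed called in each of 23 alternative analyses and Ctsb and Lgmn (2) in all but 1. The other 7 were called less often: Laptm5 in 21, Ctss in 18, Atp6v1b2 in 13, Neu1 in 12, Lamp1 and Man2b1 in 10 each and Ctsa in 8. In none did any of the 15 turn direction. The count fell to 7 without the libraries in which 18S RNA took over 25% of the counts, which leaves 1 chow null library that is assumed to vary like the others, to 8 without chow null replicate 3, and to 9 without Western null replicate 2 or without replicate 3.

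Further lysosomal genes were compared in the same way. On a list of 113 further lysosomal hydrolases, transporters, pump subunits, sorting proteins and regulators, 103 were tested and 9 rose and 1 fell in Western null relative to chow null (8.74% and 0.971%, against 6.44% and 6.77% of all genes), with a median log2 fold change of 0.28. Those with the lowest adjusted p included the lysosomal tetraspanin Cd63 (log2 4.50 ± 0.34), Rragd, a GTPase that links lysosomes to mTORC1 (2.63 ± 0.51), the sorting adaptor Gga2 (1.34 ± 0.29), the acid DNase gene Dnase2a (1.58 ± 0.37) and Cstb, an inhibitor of cathepsins (1.34 ± 0.32). The gene that fell was Sort1, a receptor that sorts proteins towards lysosomes (-1.36 ± 0.33). Gpnmb, a glycoprotein of macrophage lysosomes and a target of the MiT/TFE transcription factors, stood at 0.885, 0.681 and 0.440 CPM in Western siAATF, 43, 48 and 51.9 in Western null, 0.794, 0.185 and 0 in chow siAATF, and 0.457, 0 and 0.0871 in chow null.

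The counted length of each gene is its whole span, introns included, and span moved with the diet difference. Among all tested genes the median log2 fold change was 0.28 for spans under 10 kb, 0.03 from 10 to 30 kb and -0.24 above 30 kb. The lysosomal genes had medians of 0.31 (n = 7), 0.76 (n = 17) and 0.19 (n = 11) in these classes. Of them 3, 11 and 1 rose, against 10.4%, 6.6% and 4.33% of all tested genes in the same classes. After a correction for span, added after seeing the data, 12 rose, against 5.88% of all genes. Atp6v1a now passed (log2 0.75, edgeR adjusted p = 0.0237), whereas Ctsa, Lamp1, Man2b1 and Neu1 no longer did (edgeR adjusted p = 0.126, 0.065, 0.0617 and 0.0778).

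**Figure D3:**
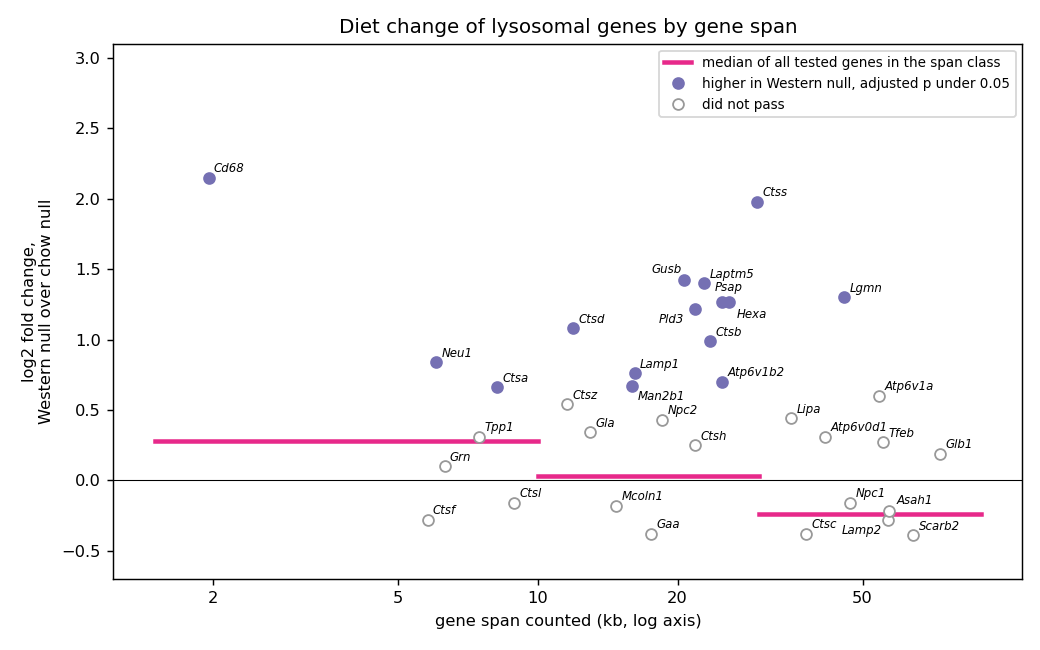
Log2 fold change in Western null over chow null against the span counted for each of the 35 tested genes (log axis, kb). Horizontal bars give the median of all tested genes below 10 kb (0.28), from 10 to 30 kb (0.03) and above 30 kb (-0.24, drawn to 90 kb). In the middle class 11 of the 17 lysosomal genes rose, against 6.6% of all tested genes.

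Markers of other cells moved with the diet as well. Of 19 tested macrophage markers (20 listed), 9 rose and 1, Timd4, fell in Western null relative to chow null. Their summed level ran from 817 to 1364 CPM in Western null and from 339.7 to 550 CPM in chow null, with Cd5l at 0 in every library. Of 11 markers of lipid-associated macrophages 8 rose, and of 11 tested hepatocyte markers 3 fell (summed 55920.2 to 61736 CPM in Western null and 74619 to 111373 CPM in chow null). Stellate cell, endothelial and cholangiocyte markers rose in 7 of 11, 4 of 9 and 4 of 6 tested cases, and 1 of 4 tested genes on the lymphocyte and neutrophil list, the proliferation gene Mki67, rose. No lymphocyte marker on that list passed the filter on low counts. In bulk tissue more cells of a type and more RNA per cell cannot be told apart, and the part of these cells in the lysosomal changes was not tested. Lyz2 and Cd63 stand both on a macrophage list and on the list of further lysosomal genes. Spp1 stands on both the lipid-associated macrophage list and the cholangiocyte list, so it enters the values of both.

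The second comparison asks what the siAATF vector did on Western diet. None of the 35 lysosomal genes passed by edgeR (0.871% of all genes did, 0.310% higher and 0.561% lower), and all 15 genes that had risen with diet stood lower in Western siAATF than in Western null, with log2 fold changes from -0.95 to -0.24. Both comparisons use the Western null libraries and are not independent. Of the 35, 11 had an unadjusted p under 0.05, all of them lower in Western siAATF, against 1271 of all 11934 genes in either direction. DESeq2 called 3 lower, where over all genes it called 159 lower and 126 higher, and limma-voom called 0. The median log2 fold change was -0.31 over the 35 genes and 0.06 over all genes.

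In 13 of the 35 all Western siAATF libraries lay below all Western null libraries, against 7.87% of all genes, and in 0 did they all lie above, against 7.69%. The 13 were Ctsa, Ctsb, Ctsd, Ctsz, Tpp1, Gusb, Hexa, Psap, Pld3, Lipa, Lamp1, Laptm5 and Atp6v1b2, of which Ctsz, Tpp1 and Lipa had not risen with diet. Gusb had the lowest estimate (log2 -0.95 ± 0.23, 95% interval -1.43 to -0.47, edgeR adjusted p = 0.0678). It was called by DESeq2 (log2 -0.96, adjusted p = 0.00748) and after the span correction (log2 -0.95, edgeR adjusted p = 0.0494). The β-hexosaminidase gene Hexa had -0.87 ± 0.26 (-1.42 to -0.32), the membrane protein gene Lamp1 -0.73 ± 0.24 (-1.23 to -0.23), Pld3 -0.70 ± 0.25 (-1.23 to -0.18), prosaposin -0.60 ± 0.26 (-1.15 to -0.05) and Ctsb -0.48 ± 0.20 (-0.91 to -0.05), with 95% intervals in parentheses. Besides Gusb, DESeq2 called Lamp1 (log2 -0.74, adjusted p = 0.0484) and Ctsb (log2 -0.49, adjusted p = 0.0356).

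For Cd68, Ctss and Lgmn the vector groups overlapped. For Laptm5 they only just did not, with at most 19.7 CPM in Western siAATF and at least 19.8 in Western null. The edgeR adjusted p was 0.388 for Laptm5 and 0.387 for Cd68. The difference, siAATF over null, was -0.94 ± 0.40 for Cd68, -0.41 ± 0.50 for Ctss and -0.29 ± 0.28 for Lgmn. Western siAATF replicate 3 stood apart from its group here, with 23.8 CPM of Ctss and 85.8 of Lgmn against 75.1 or more and 133 or more in replicates 1 and 2. Ctsc stood at 107, 129 and 22.9 CPM in Western siAATF, 41, 69.2 and 42.7 in Western null, 64.3, 51.2 and 52.9 in chow siAATF, and 78.7, 67.8 and 52.5 in chow null. It was 107 and 129 CPM in Western siAATF replicates 1 and 2, the highest of the 12 libraries, and 22.9 in replicate 3, the lowest. Leaving out replicate 3 raised the calls over all genes from 104 to 413, 201 of them higher. Ctsc then passed as higher in Western siAATF (log2 1.20, edgeR adjusted p = 0.0134), against 0.77 ± 0.44 with replicate 3. Psap, Lamp1 and Pld3 ran the other way, with replicate 3 the highest of the Western siAATF libraries.

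Markers of other cells were set beside these values. Of 19 tested macrophage markers, 0 passed in Western siAATF against Western null, and their summed level ran from 513 CPM (replicate 3) to 1308 CPM in Western siAATF, against 817 to 1364 CPM in Western null. Single markers ran otherwise: Timd4, of resident macrophages, was 6.16 to 9.51 CPM in Western siAATF and 0.988 to 2.96 CPM in Western null (log2 2.48 ± 0.64, edgeR adjusted p = 0.0933), and the scavenger receptor gene Marco was 6.60 to 180.2 CPM in Western siAATF and 2.42 to 7.84 CPM in Western null (log2 4.55 ± 1.41, edgeR adjusted p = 0.266). Both had an unadjusted p under 0.05 and were chosen after their values were seen. Lipid-associated macrophage markers fell in 6 of 11 cases, Gpnmb (log2 -6.04 ± 0.50), Trem2 (-2.84 ± 0.50) and Cd63 (-2.05 ± 0.29) among them. Without Apoe, which hepatocytes also make in quantity, the other 10 summed to 189 to 654 CPM in Western siAATF and 466 to 543 CPM in Western null. Of 11 tested stellate cell markers 0 passed and 7 had an unadjusted p under 0.05, against 1271 of all 11934 genes. Log2 fold changes of 9 stellate markers lay below 0 and of 2 above 0. The list summed to 367 to 858 CPM in Western siAATF and 1217 to 1691 CPM in Western null, without overlap. Of 6 tested cholangiocyte markers 1 fell, with sums of 25.1 to 45.6 CPM in Western siAATF and 103 to 229 CPM in Western null. The 4 tested genes of the lymphocyte and neutrophil list were S100a8, S100a9, Csf3r and Mki67, with no lymphocyte marker among them. Of these 0 passed and 2 had an unadjusted p under 0.05. The whole list summed to 89.3, 132 and 4.4 CPM in Western siAATF replicates 1 to 3, against 14.3 to 26.2 CPM in Western null. Of the hepatocyte and endothelial markers 0 passed, and the hepatocyte sums overlapped (52276 to 67487 CPM in Western siAATF, 55920.2 to 61736 CPM in Western null). The part of these cells in the lysosomal values was not tested.

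**Figure D4:**
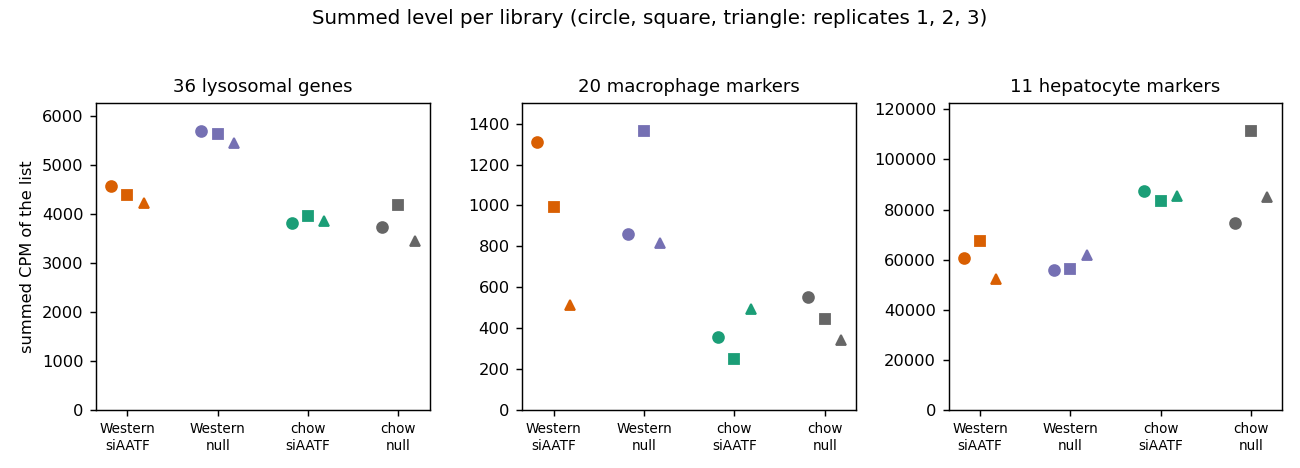
Summed CPM per library of the 36 lysosomal genes (left), 20 macrophage markers (middle) and 11 hepatocyte markers (right), with a symbol for each replicate and axes from 0. The lysosomal sum is 4219 to 4563 CPM in Western siAATF, 5446 to 5693 in Western null, 3819 to 3952 in chow siAATF and 3447 to 4176 in chow null, whereas the macrophage sums of the Western groups overlap.

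Over the whole list, the summed level averaged 4391 ± 172 CPM in Western siAATF, 5591 ± 129 CPM in Western null, 3874 ± 69.5 CPM in chow siAATF and 3783 ± 368 CPM in chow null (SD, n = 3 each). The sum is weighted to the most read genes, Psap, Lamp1, Ctsb, Ctsl, Ctsd and Lamp2. Among the 113 further lysosomal genes, 1 of 103 tested, Cd63, fell in Western siAATF against Western null and 0 rose, with a median log2 fold change of -0.21.

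The third comparison asks the same of the vector on chow. None of the 35 passed in chow siAATF against chow null by edgeR, DESeq2 or limma-voom, 0 had an unadjusted p under 0.05, and log2 fold changes lay between -0.59 (Asah1) and 0.48 (Cd68). Over all genes edgeR called 0 of 11934 (0%), with 285 at an unadjusted p under 0.05. Ctsb and Pld3 were higher and Asah1 and Scarb2 lower in chow siAATF with no overlap, against 4.25% and 4.32% of all genes. Among genes that rose with diet, the widest intervals for the vector on chow were those of Ctss (-0.97 to 1.26 on the log2 scale) and Cd68 (-0.44 to 1.40), and for Gusb the interval was -0.27 to 0.70.

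The difference between the vector's effects on the 2 diets, tested as an interaction, passed for 0 of the 35 genes by edgeR (0.193% of all genes passed, 0.101% higher and 0.0922% lower), with 6 at an unadjusted p under 0.05, against 1093 of all 11934 genes. The lowest estimates were those of Cd68 (log2 -1.42 ± 0.59), Pld3 (-1.18 ± 0.35) and Gusb (-1.17 ± 0.32). All of them had risen with diet, and the interaction uses the same Western null and chow null libraries. It is therefore not independent of the diet comparison. DESeq2 called 1, Ctsb (log2 -0.74, adjusted p = 0.0326), and limma-voom 0, where over all genes they called 124 and 9. Without Western siAATF replicate 3, Pld3 (log2 -1.41, edgeR adjusted p = 0.0431) and Ctsc (1.42, adjusted p = 0.043) passed. That fit called 295 of all genes, against 23 with replicate 3.

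The effect of diet was also compared under the siAATF vector. In Western siAATF against chow siAATF 0 of 35 passed by edgeR (1.48% of all genes did, 0.763% higher and 0.721% lower), with 2 at an unadjusted p under 0.05, against 1812 of all 11934 genes. The 5 without overlap, Ctsb, Ctsd, Lgmn, Hexa and Atp6v1b2, were all higher (9.24% of all genes were higher and 8.36% lower without overlap). Lgmn came closest (log2 1.11 ± 0.28, edgeR adjusted p = 0.057). DESeq2 called Lgmn (log2 1.12, adjusted p = 0.00892), limma-voom called 0, and without Western siAATF replicate 3 edgeR called Lgmn, Ctss and Ctsc (log2 1.31, 1.78 and 1.04). Over all genes these analyses called 513, 182 and 737, against 177 by edgeR on all libraries. Of 103 further lysosomal genes 2 rose and 2 fell: Gm2a, the activator of ganglioside breakdown, fell (-1.63 ± 0.22), as did the lipid transporter gene Abca2 (-1.38 ± 0.30), and Cd63 (2.38 ± 0.34) and Slc11a1, a metal transporter of phagosomes (1.57 ± 0.35), rose.

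Western siAATF was also set against chow null, the libraries that the 15 diet calls rest on too. By edgeR 0 of the 35 passed (2.43% of all genes did, 1.26% higher and 1.17% lower), with 8 at an unadjusted p under 0.05, against 2089 of all 11934 genes. In 8 of the 35 all Western siAATF libraries lay above all chow null libraries (8.97% of all genes) and in 0 below (8.36%), namely Ctsb, Ctsd, Lgmn, Gla, Gusb, Laptm5, Cd68 and Atp6v1b2. The largest estimates were those of Ctss (log2 1.57 ± 0.52), Cd68 (1.21 ± 0.44) and Lgmn (1.01 ± 0.28, edgeR adjusted p = 0.0686). DESeq2 called Ctss, Lgmn and Ctsb (log2 1.58, 1.02 and 0.52), limma-voom called 0, and edgeR without Western siAATF replicate 3 called Ctss and Lgmn (1.93 and 1.23). Over all genes these analyses called 700, 261 and 632, against 290 by edgeR on all libraries. Of the 103 further lysosomal genes, Cd63 (log2 2.45 ± 0.35) and the phospholipase gene Pla2g15 (1.12 ± 0.26) rose, and Gm2a fell (-1.41 ± 0.22).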

How the data were processed

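Counts per gene, as whole numbers for 12 libraries, are what the authors deposited. STAR 2.7.11, featureCounts 2.0.1, R 4.3.2, DESeq2 1.42.0 and the build GRCm39 are named in the submitters' processing notes. Strand and overlap settings were not given in the sources used here. Per the file headers each gene has one length, which equals its whole span, so introns were counted.

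From these counts, genes were kept with filterByExpr and scaled by TMM, and all 12 libraries were fitted together with a mean per group in edgeR 4.0.16 (quasi-likelihood, robust; 8 residual degrees of freedom; R 4.3.3). P-values were adjusted by the Benjamini-Hochberg method over all 11934 tested genes of a comparison, with a threshold of 0.05. Errors of log2 fold changes are standard errors with 95% intervals. The floor of 3 counts was 0.185 to 1.69 CPM and covers counting error only. Replicates differed by more than counting error in every pair. Chi-square divided by its degrees of freedom was 4.92, 7.44 and 10 between the Western null libraries. In pairs from the other groups it ran from 16.1 to 66.7. By this measure the Western null libraries lay closest together. The joint fit takes a common spread for all groups, and counts of genes without overlap make no allowance for the difference. Its cause was not tested. DESeq2 1.42.0 and limma 3.58.1 were alternatives. The fit was tested on simulated data.

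Members and lists were chosen with earlier results of these data known. Described with every library are the 15 genes past the threshold in any comparison and, with or without a call, Tfeb, Lamp1, Lipa, Npc1, Ctsb, Ctsl, Psap and Atp6v1a, 20 genes in all; of further lysosomal genes, up to 6 a comparison by adjusted p. Ctsc, Scarb2 and the remaining members without a call were added after their values were seen.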

Additional observations from a re-analysis of the deposited data

Results flagged for a closer look

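Gpnmb, the macrophage lysosome glycoprotein set beside the listed genes, was flagged because the vector's effect differed between the diets by an interaction test (log2 -6.17 ± 1.15, edgeR adjusted p = 0.0396), with all 3 Western siAATF libraries below all 3 Western null libraries and at most 0.794 CPM in either chow group. None of the 35 tested lysosomal genes on the list passed that test by edgeR.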

How the results depend on the processing

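Genes called over the whole table, 104 in Western siAATF against Western null, 0 in chow siAATF against chow null, 177 in Western siAATF against chow siAATF, 290 in Western siAATF against chow null and 23 for the interaction, moved with the setting. With no low-count filter they were 572 (385 of them higher), 33, 836, 948 and 331, and with DESeq2 285, 1, 513, 700 and 124. With only the compared groups fitted they were 53 in Western siAATF against Western null, 17 against chow siAATF and 24 against chow null. Without libraries over 25% 18S RNA they were 103 for Western siAATF against chow siAATF, 3 for the interaction and 1031 for Western null against chow null (1577 in full). Thinned to equal depth they were 82, 152 and 13 for Western siAATF against chow siAATF, against chow null and for the interaction, for which limma-voom gave 9. The cause was not tested.

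Lysosomal genes called with no filter were 2 in Western siAATF against chow siAATF and 2 against chow null, and with DESeq2 3 in Western siAATF against Western null, 1 against chow siAATF, 3 against chow null and 1 for the interaction. The span correction gave 1 in Western siAATF against Western null. Without libraries over 25% 18S RNA, 7 were called for diet under the null vector.

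Leaving out 1 library at a time, all genes called ranged from 658 to 2250 in Western null against chow null, 26 to 413 in Western siAATF against Western null, 0 to 0 on chow, 34 to 737 in Western siAATF against chow siAATF, 53 to 632 against chow null and 2 to 295 for the interaction. Lysosomal genes called ranged from 8 to 15, 0 to 1, 0 to 0, 0 to 3, 0 to 2 and 0 to 2 in the same order. The group difference in the median log2 CPM of the tested members was 0.37 for diet under the null vector, -0.21 for the vector on Western diet and -0.03 for the vector on chow, with ranges of 0.36 to 0.40, -0.29 to -0.17 and -0.05 to 0.01. Ctsl for diet ranged from -0.28 to 0.08 and Npc1 for the vector on Western diet from -0.09 to 0.21. Small values changed sign without libraries over 25% 18S RNA (Tfeb -0.03 and Ctsl 0.09 for diet, Npc1 -0.01 for the vector on Western diet), and Npc1 also after thinning (-0.05).

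Same-numbered libraries did not deviate together more than others (r from -0.378 to 0.259 over 18 pairs, against -0.313 to 0.463 over 36 other pairs). These values gave no sign that the numbers pair the samples, but with 3 libraries a group they cannot exclude it. With the replicate block, 64, 71, 141 and 14 genes were called in Western siAATF against Western null, against chow siAATF, against chow null and for the interaction, and 10 lysosomal genes for diet. Over 23 alternatives for the 20 genes of the naming rule (Ctsc and Scarb2 not among them), diet and vector on Western diet together gave 835 values that kept direction and side of the threshold, 71 that no longer passed, 6 that newly passed and 8 that changed sign. Depth limits Cd68, Gla and Ctsk most.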
